A study of Mus musculus with 3 samples.

Results

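Very short 5′ UTRs were examined for ribosome footprints in primary cortical neurons of the mouse. A 5′ UTR counted as very short when it measured at most 30 nt in the longest transcript of its gene, among transcripts for which all 3 kinds of region were deposited. This held for 1254 of 20823 genes (6.02%), which are called members here. The rule uses annotated lengths only and no read count. The neurons were cultured from mid-gestation embryos of CD-1 mice, and the labels give no genotype. The WT library is from neurons without drug. The Chx library is from neurons given cycloheximide for 2 min, a drug that stalls translating ribosomes. The Harr library is from neurons given harringtonine for 2 min, followed by a short exposure to cycloheximide. Harringtonine traps ribosomes on start codons while those already translating run off. The libraries were grouped by their titles and treatment field. A free-text field of the labels conflicts with these, since it calls Chx and Harr the input and the pulldown fraction of a cytosol region, and WT the input fraction of a psd region, each of a dep neuron. This conflict could not be settled here, so Chx, Harr and WT are the libraries with those titles. Each library came from 3 pooled dishes, and the buffers of every group, WT included, held cycloheximide at 100 μg per ml. Each treatment has 1 library, so differences between treatments could not be checked on replicates and carry no p-value. Intervals cover counting error only.

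Most eukaryotic ribosomes load at the cap of an mRNA and scan along the 5′ UTR until they meet a start codon. A very short 5′ UTR leaves little room for the loading complex, and some mRNAs of this kind carry the translation initiator of short 5′ UTRs (TISU) around their start codon. A ribosome that has stopped on a start codon covers bases on both sides of it, so that the 5′ end of its footprint lies upstream of the start codon. The deposited tables count each read at its 5′ end. A footprint of an initiating ribosome is therefore counted in the 5′ UTR file when the annotated 5′ UTR reaches far enough upstream, and outside the 5′ UTR file when it does not.

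The members had a median 5′ UTR of 20.0 nt (quartiles 13 and 26), against 177 nt over all genes. By length, 139 members had 1 to 6 nt, 109 had 7 to 10 nt, 124 had 11 to 14 nt, 286 had 15 to 20 nt and 596 had 21 to 30 nt. In 1234 members the 5′ UTR was 1 exon segment and in 20 it was 2. The bases around the start codon are given for the most read members of each length class, as the stretch that a short 5′ UTR leaves for a footprint to begin in. Each line runs 5′ to 3′ and holds the 5′ UTR, or its last 21 bases where it is longer, the start codon in capitals and the next 3 bases. The sequences are those of the GENCODE M21 transcripts on mm10, and the coordinates are those of the whole 5′ UTR.
Slc8a1 (1 nt, chr17:81649608-81649608, minus strand): cATGctt
Hist1h4d (4 nt, chr13:23581598-23581601, plus strand): taacATGtct
Hist1h4c (5 nt, chr13:23698450-23698454, minus strand): taaccATGtct
Hist2h4 (7 nt, chr3:96263305-96263311, minus strand): attagccATGtct
Atat1 (10 nt, chr17:35910036-35910045, minus strand): acaatgggccATGgag
Psmd4 (10 nt, chr3:95042534-95042543, minus strand): aggaggcaagATGgtg
Hist1h2br (13 nt, chr13:21833758-21833770, plus strand): ttccagtctcatcATGcct
Ndufa9 (13 nt, chr6:126849113-126849125, minus strand): attgtgggagaagATGgcg
Glyr1 (14 nt, chr16:5049844-5049857, minus strand): ggttgggtggtaagATGgcg
Tcf25 (17 nt, chr8:123373856-123373872, plus strand): tcaggctgtcgggtcctATGtcg
Bsg (18 nt, chr10:79704500-79704517, plus strand): gctcctggacgaggcgacATGgcg
Glg1 (20 nt, chr8:111259197-111259216, minus strand): gagctcgccgcgaacccaagATGgcg
Apc2 (23 nt, chr10:80295977-80295999, plus strand): tgtccgggcggctgcagcttcATGggg
Zwint (24 nt, chr10:72654895-72654918, plus strand): ggcgtggtgagcgacagaacgATGgcg

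The libraries held 9754412 (Harr) to 35722483 (Chx) reads. All 8 neuronal markers checked, among them Map2, Tubb3 and Snap25, had CDS reads in every library, with sums of 4014 to 5863 reads per 1000000. The 4 markers of microglia summed to 1.44 to 2.80 and the 4 of oligodendrocytes to 2.15 to 6.52 reads per 1000000, and Mog and Mobp were at 0 in every library. The 4 astrocyte markers summed to 78.8 to 213 reads per 1000000. In pooled dishes, fewer cells of a type and less RNA per cell cannot be told apart. Of the members, 557 had at least 100 CDS reads in the 3 libraries together (44.4%, against 55.0% of all genes). No CDS read was found for 441 (Chx), 537 (Harr) and 457 (WT) members. At least 1 read began in the 5′ UTR of 530, 512 and 455 members.

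Very short 5′ UTRs held a smaller share of footprints than longer ones in every library, and like the longer ones they held the largest share in Harr. Over all members the 5′ UTR held 3.20% of 5′ UTR and CDS reads in Chx (23031 5′ UTR reads, Wilson 95% interval 3.16 to 3.24). It held 16.1% in Harr (24406 reads, 15.9 to 16.3) and 1.91% in WT (11417 reads, 1.87 to 1.94). The same share over all genes was 8.86%, 35.0% and 6.28%. In Harr the share was 20.3% for 5′ UTRs of 31 to 60 nt, 29% for 61 to 150 nt and 38.6% for longer ones. Members as a set thus lay below each longer class in all 3 libraries, by more than counting error. Per nucleotide the order was the opposite. Reads per nt in the 5′ UTR over reads per nt in the CDS came to 2.46 (Chx), 14.2 (Harr) and 1.44 (WT) in members, against 0.608, 3.36 and 0.419 over all genes.

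Among members, the share in Harr was lowest at 1 to 6 nt and had no further trend with length. It was 7.22% for 1 to 6 nt (6.75 to 7.72), 19% for 7 to 10 nt, 14.6% for 11 to 14 nt, 19% for 15 to 20 nt and 15.5% for 21 to 30 nt (15.3 to 15.8). In Chx the 5 classes held 1.60%, 3.46%, 2.94%, 4.47% and 2.84%, and in WT 1.21%, 2.36%, 1.85%, 2.52% and 1.65%. These sums are led by a few genes, since 10 members held 24.0% (Harr) to 26.2% (WT) of all member 5′ UTR reads. The median over single genes with at least 100 CDS reads gives each gene the same weight. In Harr this median was 0.943% for 1 to 6 nt (44 genes), 8.33% for 7 to 10 nt (51), 12.6% for 11 to 14 nt (61), 12.5% for 15 to 20 nt (137) and 11.2% for 21 to 30 nt (264). The corresponding medians were 0.407%, 1.61%, 2.57%, 2.58% and 2.28% in Chx, and 0.0979%, 0.275%, 1.30%, 1.29% and 1.14% in WT. From 11 nt upward the class medians differed little next to the spread between genes, with quartiles in Harr of 1.71% and 25.9% for 11 to 14 nt and of 2.08% and 28.6% for 21 to 30 nt. Most members stayed below the median of 33.3% that Harr had over all genes.

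**Figure D1:**
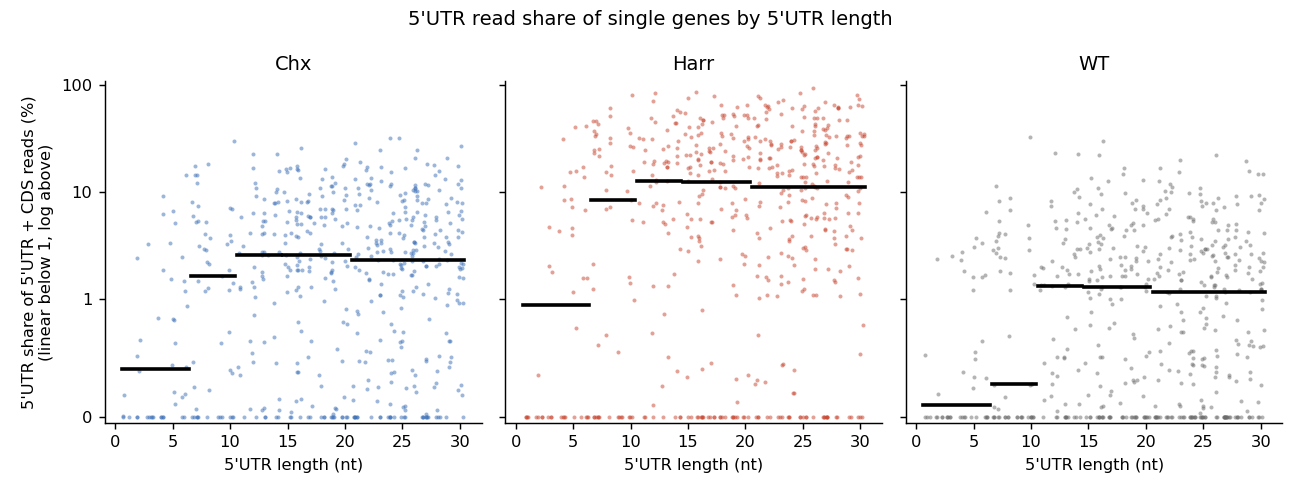
Each point is 1 member with at least 100 CDS reads, placed by 5′ UTR length in nt (x axis, shifted slightly sideways for visibility) and by its 5′ UTR share of 5′ UTR and CDS reads in % (y axis, linear below 1 and logarithmic above), with 1 panel per library. Black bars are the medians of the 5 length classes, which in Harr rise from 0.943% at 1 to 6 nt to 12.6% at 11 to 14 nt.

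A share of members had no 5′ UTR read at all, and this was most frequent in the shortest ones. Of members with at least 100 CDS reads, 45.5% had none in Harr at 1 to 6 nt (20 of 44 genes). This share was 27.5% at 7 to 10 nt, 11.5% at 11 to 14 nt, 17.5% at 15 to 20 nt and 11.7% at 21 to 30 nt, against 4.01% over all genes. In WT it ran from 50% at 1 to 6 nt to 21.2% at 21 to 30 nt, and in Chx from 34.1% to 11%. Only reads of 25 to 100 nt were counted, so any shorter footprints are absent from these values. Whether this weighs more on the shortest 5′ UTRs was not tested. Genes with exactly 1, 2 or 3 nt had 0%, 0.940% and 0.801% of their reads in the 5′ UTR in Harr (13, 13 and 15 genes), whereas those with 4 and 5 nt had 16.4% and 15.8% (24 and 54 genes). Histone genes held 97.8% of the 5′ UTR reads in Harr at 4 nt (2 genes) and 91.9% at 5 nt (3 genes). With histone genes left out, a view chosen after the values were seen, the share in Harr was 1.70% at 4 nt, 2.72% at 5 nt, 5.00% at 6 nt, 6.92% at 7 nt and 28% at 8 nt. Over 1 to 6 nt it was then 0.602% in Chx, 1.81% in Harr and 0.381% in WT (132 genes). Beyond 8 nt the rise with single lengths did not continue, and 1 predicted gene held most 5′ UTR reads at 8 nt in Harr. With histones included, the share in Harr was 0.523% at 9 nt (18 genes) and 23.2% at 10 nt (33 genes). The medians in Harr over genes with at least 100 CDS reads were 21.7% at 7 nt and 14.8% at 8 nt. They were 0% at 9 nt (5 genes) and 8.33% at 10 nt.

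The members with most CDS reads and no 5′ UTR read in Harr were Slc8a1, Tpi1, Atxn2, Clptm1 and Ehmt2. Slc8a1 encodes a sodium-calcium exchanger and has a 5′ UTR of 1 nt. It had 1 5′ UTR read against 8900 CDS reads in Chx, 0 against 2088 in Harr and 0 against 5453 in WT. In Harr, 0 reads allow a share of up to 0.144%. Another transcript of Slc8a1 begins farther upstream of the same start codon with a 5′ UTR of 100 nt, and upstream of the last nucleotide it held 328 (Chx), 520 (Harr) and 262 (WT) reads. Ehmt2, a histone methyltransferase gene with a 5′ UTR of 3 nt, had 0 reads in each library against 784 CDS reads in Harr, and 45, 13 and 22 reads upstream of it in Chx, Harr and WT. Length alone does not describe the others. Tpi1, which encodes the glycolytic enzyme triose phosphate isomerase, has a 5′ UTR of 24 nt and had 0 5′ UTR reads in all libraries against 6823 (Chx), 1805 (Harr) and 5720 (WT) CDS reads. Clptm1 (28 nt) had 4, 0 and 0 reads against 6957, 1379 and 5328 CDS reads, and Atxn2 (27 nt) had 1, 0 and 0 against 4049, 1457 and 2933.

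In Tpi1 most CDS reads in Harr lay in the first segment of the CDS. This segment of 265 nt held 1597 of 1805 CDS reads in Harr, a density of 18.4 times that of the rest of the CDS, against 1.24 times in Chx and 1.10 times in WT. In Clptm1 the first segment of 72 nt had 0.413 times the density of the rest in Harr, against 0.228 in Chx and 0.106 in WT. In Atxn2 the ratio was 0.851 in Harr, 0.528 in Chx and 0.354 in WT. In Slc8a1 it was lower in Harr, at 0.854, than in Chx (1.71) and WT (1.78), and so it was in Ehmt2, at 0.604 against 0.839 and 0.965. Harr was thus the highest library in 3 of these 5 genes and the lowest in Slc8a1 and Ehmt2, and only Tpi1 had a first segment denser than the rest in Harr. The first segment measured 641 nt in Atxn2, 280 nt in Ehmt2 and 1799 of 2877 nt of CDS in Slc8a1. The ratios of these genes are therefore not like for like.

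Where footprints begin next to a start codon can be read from transcripts that share a start codon but differ in where the 5′ UTR begins. Over all genes, each 5′ UTR piece under 60 nt that ends at a start codon was set against the longest piece of at least 60 nt that ends at the same start codon, when the latter had at least 20 reads. In Harr the last 1 or 2 nt held a median of 0.643% of the reads of the longer piece (32 pieces), the last 3 or 4 nt 2.13%, and the last 5 or 6 nt 10.3%. At 7 or 8 nt the median was 43.1%, at 9 or 10 nt 60.4% and at 11 or 12 nt 76.7%. It changed little beyond that, with 80.5% at 15 to 20 nt, 80.1% at 21 to 30 nt and 86.7% at 41 to 59 nt. In medians, Chx had the same step between 5 or 6 nt (16.3%) and 7 or 8 nt (52.4%), and so did WT (15.9% and 43.8%). Summed over pieces the rise was less steep. In Harr the sums were 2.11% (1 or 2 nt), 7.75% (3 or 4 nt), 21.7% (5 or 6 nt) and 42% (7 or 8 nt), and in WT they rose most from 3 or 4 nt (12%) to 5 or 6 nt (30%), with 39.7% at 7 or 8 nt. The spread between genes was wide, and at 11 or 12 nt the quartiles in Harr were 22.3% and 94.7%. Few of these pieces belong to members, for example 19 of 115 genes at 5 or 6 nt, so the values are largely drawn from other genes.

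**Figure D2:**
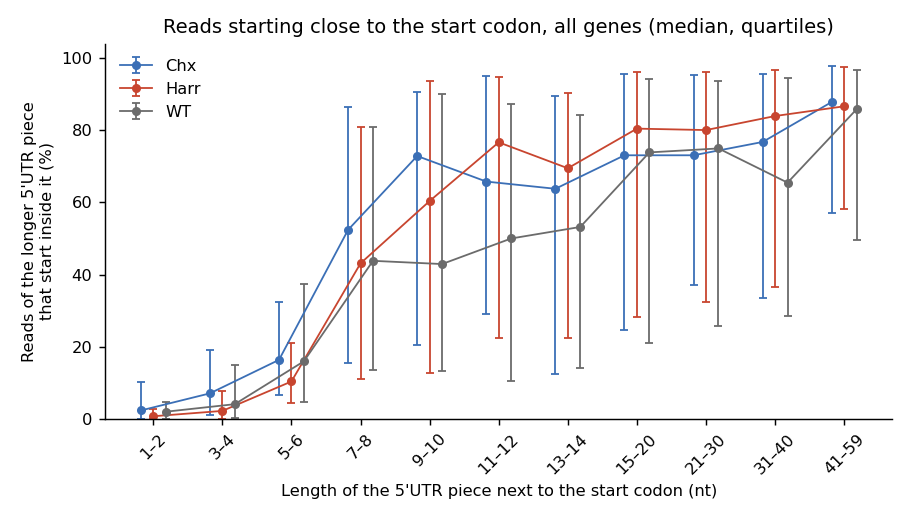
Median percentage (y axis) of the reads of a 5′ UTR piece of at least 60 nt that begin within its last nucleotides before the start codon, by the length of that last stretch in nt (x axis), over all genes and for each library. Bars span the quartiles over pieces, and the medians of all libraries rise most between 5–6 and 7–8 nt, in Harr from 10.3% to 43.1%.

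Of the members, 339 had another transcript with a longer 5′ UTR before the same start codon, which shows the reads that the short annotation leaves out. In Harr the 52 such members of 1 to 6 nt held 97 reads inside the short 5′ UTR and 1764 upstream of it, so that 5.21% began inside (4.29 to 6.32). At 7 to 10 nt it was 59.7% (905 inside and 611 upstream, 57.2 to 62.1), at 11 to 14 nt 88.0% (816 and 111, 85.8 to 90.0) and at 15 to 20 nt 89.1% (3399 and 417, 88.0 to 90.0). In Chx the same 4 classes gave 7.81%, 61.7%, 88.1% and 88.4%, and in WT 7.32%, 63.0%, 92.4% and 88.0%. The classes up to 14 nt differed by more than counting error in every library. At 1 to 6 nt Chx lay above Harr by more than counting error (6.68 to 9.12 in Chx). At 21 to 30 nt the summed value was 50.3% in Harr (4231 and 4186 reads), 49.8% in Chx and lower, 40.9% (39.5 to 42.4), in WT. The medians over single genes of this class were higher, at 95.1% in Harr (57 genes), 96.7% in Chx (63) and 85.4% in WT (44). In 16 of the 339 members the longer 5′ UTR is spliced so that it does not contain the whole short one.

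**Figure D3:**
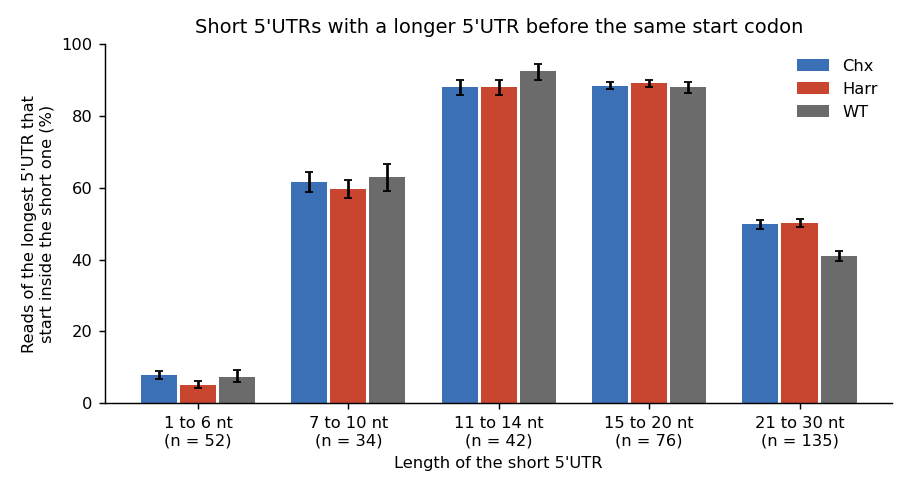
Reads of the longest 5′ UTR before a start codon that begin inside the short 5′ UTR, in % (y axis), for members with such a second transcript, by length of the short 5′ UTR (x axis, n is the number of genes) and library. Bars are sums over genes with Wilson 95% intervals, and Harr rises from 5.21% at 1 to 6 nt to 88.0% at 11 to 14 nt.

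A few genes with long alternative 5′ UTRs carried most of the upstream reads at 21 to 30 nt. Gnao1, which encodes a G protein alpha subunit abundant in brain, had 101 (Chx), 114 (Harr) and 70 (WT) reads in its 23 nt, and 1617, 2148 and 1540 reads upstream within the longer 5′ UTR of 498 nt. Hdac9, a histone deacetylase gene, had 129, 74 and 116 reads in 24 nt and 630, 856 and 570 reads upstream. Its short 5′ UTR overlaps a CDS segment on the same strand, as in 22 members, so these reads can also belong to a CDS. Khdrbs3, which encodes an RNA-binding protein, had 15, 15 and 9 reads in 25 nt and 581, 574 and 192 upstream. At the other end, Psmd4 (10 nt, a proteasome subunit gene) had 20, 82 and 66 reads inside and 0, 5 and 2 upstream, and Stx1a (21 nt, the synaptic vesicle fusion protein syntaxin 1A) had 319, 479 and 217 inside and 14, 9 and 3 upstream. Mrpl20 (6 nt) had 26, 22 and 7 reads inside and 94, 120 and 37 upstream. For these members most reads lay inside the annotated 5′ UTR in Psmd4 and Stx1a, and outside it in Gnao1, Hdac9, Khdrbs3, Mrpl20 and Slc8a1.

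How the balance of 5′ UTR and CDS reads differed between a pair of libraries was described by a log2 odds ratio for each gene. A gene was called higher when this was at least 1 and its 95% counting interval lay above 0, with at least 10 5′ UTR and 10 CDS reads in the pair. In Harr against Chx, 320 of 379 members were called higher and 0 lower, where 89.4% of all genes tested were called higher and 0.103% lower. In Harr against WT it was 322 of 337 members, with 94.3% over all genes, and 0 lower, with 0.136% over all genes. In Chx against WT it was 129 of 353 members, with 30.3% over all genes, and 8 were lower, with 1.09% over all genes. The members' shares of called genes (84.4%, 95.5% and 36.5%) were near those backgrounds. Their median log2 odds ratio was 2.44 in Harr against Chx (2.46 over all genes). It was 3.55 in Harr against WT (3.23) and 0.91 in Chx against WT (0.67). The 5 length classes spanned 2.30 to 2.60 in Harr against Chx, with quartiles over members of 1.73 and 3.35. The medians of members and of all genes thus lay closer to each other than these quartiles, while the members held a smaller share of reads in each library. Members that passed the read minimum number 18 of 139 at 1 to 6 nt and 193 of 596 at 21 to 30 nt, and the others say nothing about the ratio. The 3 comparisons share libraries and are not independent.

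**Figure D4:**
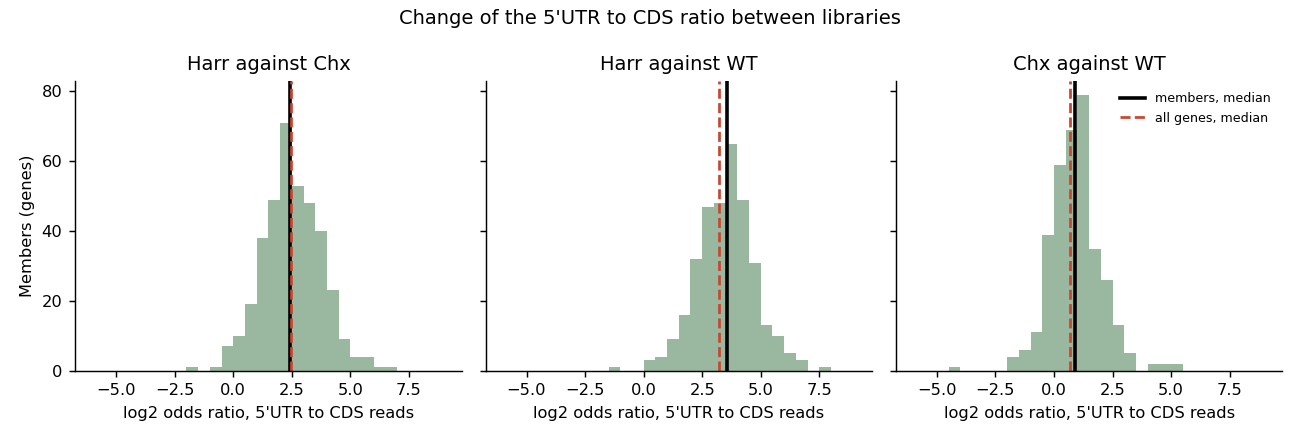
Number of members (y axis) by log2 odds ratio of 5′ UTR to CDS reads (x axis) for the 3 pairs of libraries, over members with at least 10 reads of each region in the pair. The black line is the median of the members and the dashed red line that of all genes, which are 2.44 and 2.46 (Harr against Chx), 3.55 and 3.23 (Harr against WT) and 0.91 and 0.67 (Chx against WT).

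The most read members showed this range gene by gene. Bsg (basigin, a membrane glycoprotein, 18 nt) had 1090 5′ UTR and 17837 CDS reads in Chx, 283 and 2257 in Harr, and 317 and 16753 in WT. Its share was 5.76% (Chx), 11.1% (Harr) and 1.86% (WT), and the log2 odds ratio of Harr against Chx was 1.04 (SE 0.10). Zwint (24 nt), a kinetochore protein gene, had 84 5′ UTR reads against 28309 CDS reads in Chx, 82 against 2282 in Harr and 137 against 24620 in WT. Its shares of 0.296%, 3.47% and 0.553% are low in every library, and the log2 odds ratio was 3.60 (SE 0.23). The first CDS segment of Zwint, of 59 nt, held 1076 of its 2282 CDS reads in Harr, a density of 10.6 times the rest, against 0.731 in Chx and 0.599 in WT. Tcf25 (17 nt) had 513, 525 and 108 5′ UTR reads in Chx, Harr and WT, with shares of 5.84%, 19.3% and 1.62%. Glyr1 (14 nt) had only 3, 4 and 5 5′ UTR reads beside 5258, 1038 and 4611 CDS reads. Glg1 (20 nt), which encodes a Golgi membrane protein, had 92, 126 and 35 5′ UTR reads, and Apc2 (23 nt), a relative of the tumour suppressor gene Apc, had 25, 30 and 7. Unlike that of Zwint, the first CDS segment of Glg1, of 426 nt, was least dense in Harr. It had 0.152 times the density of the rest there, against 1.14 in Chx and 0.979 in WT. Atat1 (10 nt), the alpha-tubulin acetyltransferase gene, had 237, 251 and 131 inside its short 5′ UTR and 228, 409 and 132 upstream of it. Eif3f, chosen after its values were seen as the member with most 5′ UTR reads, encodes a subunit of the initiation factor eIF3 and has a 5′ UTR of 15 nt. The Chx library had 1198 reads in it (16.9%), Harr 1385 (75.9%) and WT 732 (13.5%).

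The highest log2 odds ratios of Harr against Chx were those of Sdhc (25 nt), Rps13 (26 nt), Hist1h2bk (17 nt), Rtl8c (14 nt) and Psmd4 (10 nt). Sdhc, a subunit of succinate dehydrogenase, had 4 5′ UTR reads beside 4880 CDS reads in Chx, 20 beside 219 in Harr and 3 beside 3962 in WT, a log2 odds ratio of 6.66 (SE 0.76) for Harr against Chx. Rtl8c, a gene derived from a retrotransposon, had 67 beside 2380 in Chx, 188 beside 131 in Harr and 78 beside 2920 in WT, and its share was 2.74% in Chx and 58.9% in Harr. Rps13, a ribosomal protein gene, had 68 beside 256, 113 beside 6 and 78 beside 270. All words of 25 nt that begin in its 5′ UTR occur in another gene too, so its reads may be split with that gene and its values are uncertain. The same holds for 78.4% of the CDS words of Hist1h2bk. At the low end, the log2 odds ratios of Kmt2a (−1.89, SE 1.26), Rapgef2 (−0.75, SE 1.27), Reps1 (−0.32, SE 1.03), Bud13 (−0.17, SE 0.91) and Tapt1 (−0.15, SE 1.01) did not differ from 0 beyond counting error. With 5 in place of 0.5 added to each count, all but that of Kmt2a were above 0. This shift is no evidence about these genes. Where 5′ UTR reads are few, the added constant moves the value toward the ratio of Chx to Harr CDS reads. All of these genes had more CDS reads in Chx than in Harr. Kmt2a, a histone methyltransferase gene of 22 nt, had 10 (Chx), 1 (Harr) and 0 (WT) 5′ UTR reads beside 644, 341 and 506 CDS reads.

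A footprint on the start codon itself begins upstream of the CDS, so its 5′ end is not counted in the CDS file. Reads that begin early in the CDS are counted there. Positions inside a segment are not given in the tables, so the read density of the CDS segment with the start codon was set over that of the rest of the CDS, for genes with at least 2 CDS segments, a first segment of at least 30 nt and 100 CDS reads. In Harr the median ratio was 2.17 in members (462 genes), against 1.87 over all genes, 2.02 at 31 to 60 nt and 2.09 at 61 to 150 nt. In Chx it was 1.42 against 1.60, and in WT 1.16 against 1.29. By length the medians in Harr were 1.93 for 1 to 6 nt, 2.74 for 7 to 10 nt, 3.08 for 11 to 14 nt, 1.67 for 15 to 20 nt and 2.12 for 21 to 30 nt, and 1.78 for 5′ UTRs over 150 nt. The shortest class did not have the densest first segments, and the quartiles of all classes overlap (0.910 and 3.32 at 1 to 6 nt, 1.24 and 5.48 at 11 to 14 nt). The length of the first segment also differed, with medians of 177 nt at 1 to 6 nt, 139 nt at 11 to 14 nt and 123 nt at 21 to 30 nt. The ratio does not allow for this. Harr lay above Chx in 287 of 462 members (62.1%), in 62.4% of genes at 31 to 60 nt and in 55.9% of all genes. In the shortest class, where a longer transcript was annotated, 1764 of the reads in Harr began upstream of the short 5′ UTR and 97 inside it, as given above.

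**Figure D5:**
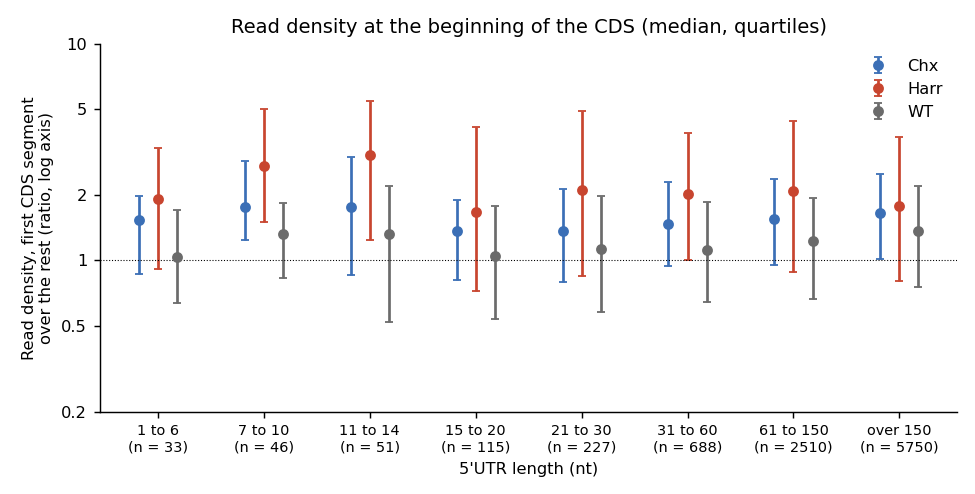
Read density of the first CDS segment over the rest of the CDS (y axis, logarithmic) by 5′ UTR length in nt (x axis, n is the number of genes that passed the filters) and library, as median with quartiles over genes. Harr has the highest median in every class, between 1.67 at 15 to 20 nt and 3.08 at 11 to 14 nt, and the quartile ranges of the classes overlap.

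Histone genes, most of which have no introns, were the most frequent of the gene lists among the members. They made up 20 of 76 listed histone genes (26.3%, against 6.02% of all genes). In 19 members with at least 100 CDS reads the median share was 5.36% (Chx), 31.4% (Harr) and 3.05% (WT), next to 5.36%, 39.2% and 4.63% in 44 histone genes with longer 5′ UTRs. In Harr against Chx, 18 of 19 tested were called higher, where 89.4% of all genes tested were, and the counts of the other gene lists stand against the same background. The histone H4 genes compare like coding sequences behind 5′ UTRs of 4 to 8 nt. Hist1h4d (4 nt) had 155 5′ UTR reads beside 8275 CDS reads in Chx, 100 beside 769 in Harr and 212 beside 9093 in WT. Hist1h4c (5 nt) had 272 beside 3799, 243 beside 359 and 148 beside 4710. Hist2h4 (7 nt) had 347 beside 5517, 337 beside 392 and 184 beside 6762. The share in Harr was 11.5% (9.55 to 13.8) at 4 nt, 40.4% (36.5 to 44.3) at 5 nt and 46.2% (42.6 to 49.9) at 7 nt. The other H4 members, added after their values were seen, did not follow this order. Hist1h4f (5 nt) had 15.7% (11.5 to 21), with 35 5′ UTR reads beside 188 CDS reads, and Hist1h4b (8 nt) had 17.5% (12.4 to 24.1), with 28 beside 132. Of their CDS words 58.3% and 64.4% occur in other genes, against 15.9% (Hist1h4d), 24.4% (Hist1h4c) and 4.69% (Hist2h4), so their reads are less certain. Hist1h3g (24 nt), an H3 gene, had 61.1% in Harr, 6.32% in Chx and 4.17% in WT, with 66% of its CDS words shared. Hist1h2br had 38.1%, and 89.7% of its CDS words occur in other genes as well.

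Genes of the mitochondrial ribosome and the proteasome were also frequent among the members, with 11 of 78 (14.1%) and 7 of 50 (14%). All 10 tested members of the mitochondrial ribosome were called higher in Harr against Chx (89.4% of all genes), with a median log2 odds ratio of 2.67 (2.46 over all genes). Their median share in Harr was 30%, next to a median of 40.7% in 67 such genes with longer 5′ UTRs, and their summed share was higher, at 47.7% (45.7 to 49.6). Mrps22 (16 nt) had 68 5′ UTR reads (5.00%) in Chx, against 65 (23.9%) for Harr and 43 (3.76%) for WT. In the proteasome, Psmb6 (11 nt) had 126 (2.68%), 117 (31.4%) and 66 (1.94%), and all 3 tested members were called higher (89.4% of all genes), including Psmd4 (log2 odds ratio 5.61, SE 0.36). Psmd4 was also 1 of the 8 members called lower in Chx against WT, at −1.88 (SE 0.37).

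Among the subunits of oxidative phosphorylation and of the cytosolic ribosome, single members mostly had low shares. In 7 oxidative phosphorylation members of 87 (8.05%) the median share in Harr was 3.0%, next to 55.4% in 75 such genes with longer 5′ UTRs, and in Chx it was 0.375% next to 7.24%. Ndufb8 (25 nt), of respiratory complex I, had 35 5′ UTR reads beside 5886 CDS reads in Chx, 11 beside 891 in Harr and 5 beside 5265 in WT. Its first CDS segment was 12.6 times as dense as the rest in Harr, against 0.713 in Chx and 0.578 in WT. Ndufa9 (13 nt) held more 5′ UTR reads, with 206 (4.06%) for Chx, 149 (27.1%) for Harr and 81 (1.86%) for WT, and its first segment still was 11.5 times as dense as the rest in Harr, against 0.685 in Chx. Summed over the list the share in Harr was 11.4% (10.2 to 12.6). All 5 tested members of this list were called higher in Harr against Chx, with 89.4% over all genes. Of the cytosolic ribosomal proteins 9 of 102 (8.82%) were members, with a median share in Harr of 1.43% next to 23.1% in 89 others, and 3 of 4 tested were called higher (89.4% of all genes). Their summed share in Harr was above this median, at 18.4% (16.1 to 21), and Rps13 alone had 95%. Rpl10a (30 nt) had 8, 2 and 12 5′ UTR reads beside 2946, 375 and 1982 CDS reads, and Rpl9-ps6, a pseudogene copy by its symbol, had 0 beside 1124, 59 and 1040. Of their CDS words 67.9% and 94.7% occur in other genes, so these reads cannot be placed with certainty.

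Neuronal gene lists were nearly empty. Stx1a was the only member of 78 listed synaptic genes (1.28%), and 2 of 137 ion channel genes (1.46%) were members. Stx1a had 319 5′ UTR reads beside 2632 CDS reads in Chx (10.8%), 479 beside 482 in Harr (49.8%) and 217 beside 2578 in WT (7.76%). Kcnt1 (8 nt), a sodium-activated potassium channel gene, had 4, 2 and 0 5′ UTR reads beside 134, 27 and 76 CDS reads. Kcnh6 had 31, 9 and 22 CDS reads and 0 5′ UTR reads. Predicted genes were more frequent, with 164 of 1459 (11.2%), but only 29 of them had 100 CDS reads. Gm38393 had 2 (Chx), 1 (Harr) and 69 (WT) 5′ UTR reads, and all 25-nt words of its 5′ UTR occur in other genes. The same holds for the 5′ UTR words of Gm42416, which had 27, 33 and 13 5′ UTR reads, and for 99.3% of its CDS words. Of the zinc finger genes 13 of 386 (3.37%) were members, and all 6 tested were called higher in Harr against Chx (89.4% of all genes). Zfp346 (17 nt) had shares of 5.07%, 45.2% and 4.49% in Chx, Harr and WT, and Zfp277 (15 nt) had 3.35%, 12.7% and 1.01%. The 17 olfactory, vomeronasal and taste receptor genes among the members, of 1351, had 11 (Chx), 1 (Harr) and 5 (WT) CDS reads in all.

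Sequence around the start codon was read from the GENCODE M21 transcripts. Of 1245 members with sequence, 1243 began with ATG. The TISU element was present at the start codon of 50 members (4.02%), against 0.690% of all genes, and was most frequent at 11 to 14 nt (12 of 123, 9.76%). Its inner part ATGGCGGC, read on the transcript strand from the start codon, was found in 119 members (9.56%) and in 2.29% of all genes. A G after the start codon was present in 57.1% of members and 49.2% of all genes, and a purine 3 bases before it in 88.0% and 84.2%. An ATG upstream of the start codon occurred in 59 members (4.74%), against 55.4% of all genes, whose 5′ UTRs are longer. Among the genes named here, TISU was present in Psmb6, Ndufa9 and Clptm1.

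Members with TISU had a lower share of reads in the 5′ UTR than the other members. It was 2.45% (Chx), 10.7% (Harr, 10.2 to 11.2) and 1.29% (WT), next to 3.30%, 16.7% (16.5 to 16.9) and 1.98% in members without it. The medians over genes with at least 100 CDS reads were 5.48% in 47 genes with TISU and 11% in 509 without in Harr. Both sets had similar 5′ UTR lengths, with medians of 18 and 20 nt. In Harr against Chx 27 of 34 members with TISU and 293 of 345 without were called higher (89.4% of all genes), with a median log2 odds ratio of 2.11 next to 2.49. Members with ATGGCGGC likewise had 10.3% in Harr next to 17.6%. For a purine 3 bases before the start codon the share in Harr was 17.4%, and 8.45% without it. Whether these differences belong to the sequence or to the genes that carry it was not tested.

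Of the 1254 members, 879 (70.1%) had a transcript in the consensus CDS (CCDS) set, against 84.9% of all genes. The sets differed in the reads of the 3′ UTR, the region after the stop codon, where few ribosomes are usually found. In the members of the set the 3′ UTR held 0.475% (Chx), 3.44% (Harr) and 0.818% (WT) of the reads of the transcript. In the 375 other members it held 22.4%, 23.1% and 22.4%, and over all genes 1.71%, 4.10% and 2.18%. Over all genes in the CCDS set it held 0.711%, 3.31% and 1.14%. Without the 6 members with most 3′ UTR reads the share over all members was 3.77%, 6.17% and 4.14%, in place of 6.68%, 8.88% and 6.87%. The members with most 3′ UTR reads, chosen after their values were seen, were Psmd2, Rpl10a and Sssca1. Psmd2, a proteasome subunit gene, is represented by a transcript with 13 nt of 5′ UTR, 183 nt of CDS and 2805 nt of 3′ UTR, and had 8190 (Chx), 1695 (Harr) and 6475 (WT) 3′ UTR reads beside 630, 379 and 399 CDS reads. Rpl10a had 5284, 270 and 3855 3′ UTR reads behind an annotated CDS of 177 nt. In Psmd2 the annotated 3′ UTR thus held more reads than the CDS in every library, and in Rpl10a it did so in Chx and WT. The 5′ UTR share differed less between these sets, with 14.5% (14.3 to 14.7) in Harr in the CCDS set and 21.2% (20.8 to 21.7) outside it, and medians of 10.2% and 11.1%.

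The share in Harr also differed with the place of the short 5′ UTR within its gene. In 757 members it begins at the most upstream annotated start of the gene, and these had 3.32% (Chx), 16.6% (Harr) and 2.00% (WT) of reads in the 5′ UTR. The 339 members with a longer 5′ UTR before the same start codon had 3.21%, 17.4% and 1.92%. In 158 members another transcript of the gene begins upstream but gives no longer 5′ UTR before the same start codon, and these had 2.72%, 10.7% and 1.49%, the lowest share in each library. Members with at least 10% of their 25-nt words in other genes (257) had a larger share in Harr, 33.8% (33 to 34.6), than the 988 with fewer shared words, 14.2% (14 to 14.4), while their median log2 odds ratios of Harr against Chx were 2.88 and 2.37.

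The level of the CDS itself was compared between libraries per 1000000 CDS reads, for the 557 members with at least 100 such reads. The median log2 ratio of Harr against Chx was −0.04 in these members and −0.05 in 11459 genes. In this comparison 36 members were at least 2-fold higher and 79 at least 2-fold lower, where 4.63% and 14.1% of all genes were. In Harr against WT it was 43 and 83 members, with 5.30% and 14.7% over all genes, and in Chx against WT 1 and 1, with 0.201% and 0.122%. Scaling by all reads of the library, which are richer in 5′ UTR reads in Harr, shifted the median of all genes in Harr against Chx to −0.60 and that of the members to −0.58, and 10 members were then higher and 162 lower, where 0.559% and 31.4% of all genes were. Members have shorter coding sequences, with a median of 945 nt against 1146 nt over all genes, and the ratio of Harr against Chx differed with CDS length. In coding sequences under 600 nt the median was −0.42 in members and −0.68 in all genes. From 600 nt to under 1200 nt it was −0.38 and −0.54, and from there to under 2000 nt 0.06 and −0.07. From 2000 nt to under 4000 nt it was 0.41 and 0.36, and in longer ones 0.87 and 0.66. The members' median was the higher one in each class, by less than the quartile range of single members (−1.11 to 0.28 under 600 nt).

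At the length limit the genes just inside had 12.5% (28 nt), 15.1% (29 nt) and 20.1% (30 nt) of reads in the 5′ UTR in Harr, and those just outside 30.4% (31 nt), 35.3% (32 nt) and 24.5% (33 nt). The share was not higher throughout beyond the limit, and genes of 34 and 35 nt had 15.5% and 9.88%. The medians over single genes were 7.5%, 9.16% and 13.8% at 28, 29 and 30 nt, 21%, 16.4% and 19.6% at 31, 32 and 33 nt, and 12% and 16.1% at 34 and 35 nt. Ubr4 (28 nt), a large ubiquitin ligase gene, had 28 5′ UTR reads (0.284%) in Chx, against 38 (1.42%) for Harr and 8 (0.131%) for WT. Ipo5 (30 nt), a nuclear import receptor gene, had 163 (1.89%), 144 (6.35%) and 41 (0.590%). Outside the limit, Hist1h4j (32 nt) had 53 (0.517%), 21 (3.37%) and 98 (0.801%), and Eif4a2 (33 nt), an RNA helicase of translation initiation, had 371 (4.06%), 455 (39.7%) and 321 (3.71%).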

How the data were processed

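Footprints of 3 libraries (Chx, Harr and WT, 1 each, from monosomes after nuclease digestion) were read from 9 deposited tables, 1 for each library and region. The authors counted reads with Plastid. Per the file headers, the deposited counts are whole, unnormalized reads per exon segment on mm10, of 25 to 100 nt, placed at the 5′ end with an offset of 0. Names in the headers mark the alignments as cleared of ribosomal reads and duplicates, and how duplicates were found is not stated there. The deposited coverage signal is the count per nucleotide and the deposited RPKM the count per kilobase and 1000000 reads. Both follow from the counts, and only the counts were tested. The study's methods name Rsubread on mm10 for the Plastid counts of its other footprint libraries. For the reading frame search on these libraries they name TopHat on the transcriptome, with multiple matches allowed and reads placed from the 3′ end. Neither description names these tables, so their aligner and their treatment of reads with several matches are uncertain. Grouping came from titles and the treatment field, with which a free-text field conflicts.

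Counts were summed per transcript and region, and the longest transcript with all 3 regions stood for each gene. GENCODE M21 gave symbols and sequences (99.4% of 142446 transcript identifiers, 99.1% with the version, and 1245 members). No sequence is printed for 24 members on 1 chromosome, and the sequence of 1 of the most read members is not reported here. Odds ratios had 0.5 added to each count and a minimum of 10 reads of each region in the pair, and their SE covers counting error. The scripts were tested on simulated data. The limit that 0 reads allow is 3 counts, intervals are Wilson 95%. Words are 25-nt stretches, called shared when another gene holds them. Members, lists and named genes were chosen with earlier results of these data known. Named members were the 3 most read per length class, the 5 highest and 5 lowest odds ratios of Harr against Chx, the 5 with most CDS reads and 0 5′ UTR reads in Harr, the 3 with most upstream reads in Harr, the 2 with most CDS reads per gene list, and the 2 most read on each side of the length limit. The receptor list is given as a sum. The 5′ UTR pieces that share a start codon, the split by CCDS and the view without histone genes were chosen after the data were seen. Alternatives were another transcript, limit, pseudocount, read minimum and scaling, and subsets of members. Python 3.11.15, numpy 2.4.6, pandas 2.3.3, scipy 1.17.1 and matplotlib 3.10.9 were used.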

Additional observations from a re-analysis of the deposited data

How the results depend on the processing

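Each treatment had 1 library, so none could be left out. No paired analysis was possible because each treatment has 1 library. Of the summary values recomputed, 60 stayed near the reported value and 45 moved. The 5′ UTR share of members moved in Chx (3.20%), Harr (16.1%) and WT (1.91%) as follows. With at most 20 nt it was 3.54%, 16.6% and 2.13%, and with at most 40 nt 3.83%, 19.3% and 2.27%. Without the 10 most read members it was 3.50%, 17.9% and 2.11%, and with under 10% of words shared 3.04%, 14.2% and 1.73%. With the most read transcript it was 3.50% in Chx and 2.00% in WT, and without members that have a longer 5′ UTR it was 15.3% in Harr. Every one of these shares stayed below the reported share over all genes. Members called higher in Harr against Chx, Harr against WT and Chx against WT numbered 200 of 236, 198 of 206 and 84 of 219 tested without members that have a longer 5′ UTR. They were 157 of 186, 157 of 166 and 70 of 173 with at most 20 nt, and 515 of 596, 513 of 538 and 198 of 561 with at most 40 nt. With a minimum of 50 5′ UTR reads they were 186 of 192, 155 of 157 and 70 of 155, and with no minimum a smaller part was called, 374 of 649, 397 of 641 and 130 of 671. With 5 added to each count they were 343 of 379, 329 of 337 and 99 of 353. Every setting named here for the calls, except the added 5, changes how many genes are tested. The reported counts were 320 of 379, 322 of 337 and 129 of 353. The median log2 odds ratio was 2.78 (Harr against Chx) and 3.83 (Harr against WT) with the minimum of 50 5′ UTR reads. It was 3.19 (Harr against WT) and 0.63 (Chx against WT) both with 5 added to each count and with no minimum. With first segments of 30 to 200 nt their density ratio was 2.94 in Harr and 1.02 in WT, in place of 2.17 and 1.16. The share of reads inside the short 5′ UTR was 65.4% (Chx), 64.3% (Harr) and 57.2% (WT) against the nearest longer 5′ UTR, in place of 58.5%, 57.1% and 52.2%. Only with short 5′ UTRs that lie wholly inside the longer one, a choice made after seeing the data, it was 58.8%, 57.4% and 52.7%. The median CDS log2 ratio was −0.58 (Harr against Chx), −0.55 (Harr against WT) and 0.03 (Chx against WT) with all reads, −0.04 (Chx against WT) with size factors, and 0.73, 0.64 and −0.24 with no minimum, where members without any read enter through the added 0.5, so that its sign changed in Harr against Chx and in Harr against WT. With 5 added to each count the lowest log2 odds ratios became −0.41 (Kmt2a), 0.69 (Rapgef2), 0.60 (Reps1), 0.47 (Bud13) and 0.86 (Tapt1). This shift comes with the added constant where 5′ UTR reads are few. Counts of 0 to a few reads limit the shortest class, of which 18 members reached the read minimum.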
